A study of Callithrix jacchus with 5 samples.

Results

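The genes described here lie on chromosomes 9 and 15 of a New World monkey, the common marmoset. They were chosen as the gene identifiers whose first chromosome entry is 9 or 15 and whose mean over 5 RNA-seq libraries is at least 10 CPM (a gene's count divided by the library total, times 1000000). Symbols that begin with ZNF, SLC or HOXC were left out. The rule gave 916 genes of the 30811 identifiers in the table, 525 on chromosome 9 and 391 on chromosome 15, and 698 of them carry a symbol. Of the 2687 identifiers on these chromosomes, 1742 lay under the threshold and 29 were left out by symbol. Just inside the threshold were OGG1 at 10.06, SENP7 at 10.3 and SEC22A at 10.4 CPM, and just outside it BORCS5 at 9.98, SYN2 at 9.97 and SOCS2 at 9.87 CPM. The chromosomes were picked because earlier results of these data had shown their genes higher in the embryonic stem (ES) cell line No20, so the values of that line are given as a description, with no test.

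The series holds 1 library of fibroblasts (E01F, P 1), 1 library from each of 3 ES cell lines (No40, P 63; DSY127, P 17; No20, P 45) and 1 of iPS cells (induced pluripotent stem cells, RNAiPS_1). ES cells are pluripotent cells derived from early embryos, and iPS cells are pluripotent cells made from somatic cells by reprogramming. The labels name no genotype, treatment, age or sex, do not say what the P numbers stand for, and do not say from which cells or by which method the iPS cells were made. Each ES line gave 1 library, so the line, its P number and its library cannot be told apart.

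The average transcript output of a chromosome follows the number of copies of that chromosome, because most genes are transcribed from each copy present. A change of copy number therefore shows in RNA as a small shift shared by many unrelated neighbouring genes, on top of the regulation of each gene. Pluripotent cells kept in long culture are known to acquire gains of chromosomes or of parts of them. DNA was not analysed here, and all values below are transcript levels.

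Library totals were 34111715 to 58601185 counts for the fibroblast and ES libraries and 5746449 for the iPS library. The median count of the 916 genes was 1377 to 2366 in the first 4 libraries and 236.5 in the iPS library, so single genes are measured least precisely there. Levels below are CPM scaled with TMM factors, a normalization that assumes most genes are alike between libraries, and they are not divided by gene length, so they compare libraries and not genes. Of 6 pluripotency markers, including POU5F1, NANOG and SOX2, the summed level was 25.9 CPM in the fibroblasts and 2911 to 5805 CPM in the other libraries. For 6 fibroblast markers the sum was 64772 CPM in the fibroblasts and 8972 CPM in the iPS library, and ran from 1269 to 2395 CPM over the ES lines. In the iPS library COL1A1 (4921 CPM) and COL1A2 (3446 CPM) made up most of that sum, while DCN (6.59 CPM) and PDGFRA (25.2 CPM) were below every ES line. FAP, at 13.7 CPM, was above every ES line (0.163, 0.278 and 1.33 CPM in No40, DSY127 and No20). VIM, at 560 CPM, lay within the range of the ES lines. Within the ES lines, No20 had the lowest pluripotency sum (2911 CPM, against 5805 in No40 and 4923 in DSY127), with DNMT3B at 711 CPM against 2984 and 1984, and it had the highest level of VIM, an intermediate filament gene (1240 CPM, against 429 and 447). The part of these differences in the results below was not tested, and in bulk RNA fewer cells of a type and less RNA per cell cannot be told apart. Over the ES lines in the order No40, DSY127 and No20, 3 endothelial markers summed to 288, 360 and 390 CPM, mostly PECAM1, and 3 melanocyte markers to 20.5, 29.3 and 35.4 CPM, almost all PMEL. Muscle markers (MYOD1, MYOG) summed to at most 0.114 CPM there, blood markers to at most 7.11 CPM and keratinocyte markers to at most 2.56 CPM.

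In line No20 the genes of both chromosomes sat above the other 2 ES lines. For each gene the log2 level of No20 minus the mean log2 level of No40 and DSY127 was taken, and the median of the 8993 genes with at least 10 CPM on all other chromosomes was set to 0. On that scale the median of the 525 genes of chromosome 9 was 0.38 (quartiles 0.02 and 0.71), or 1.30-fold. The median of the 391 genes of chromosome 15 was 0.40 (quartiles -0.01 and 0.75), or 1.32-fold. The other 21 chromosomes had medians from -0.24 (chromosome 22) to 0.13 (chromosome 21), with quartiles over all their genes of -0.33 and 0.33. With 1 library against 2, an exact permutation test could not go below p = 0.333.

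**Figure D1:**
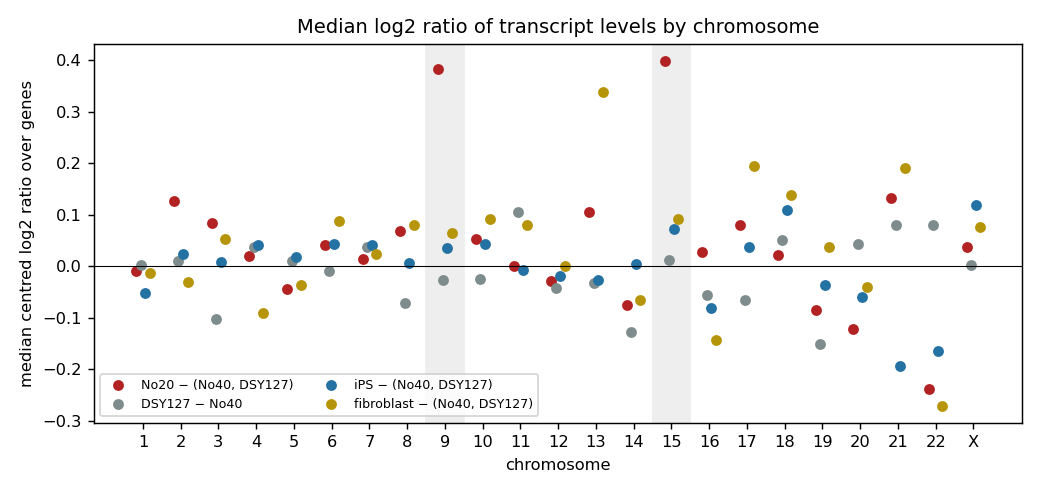
Median centred log2 ratio of transcript levels (vertical axis, log2 units) for each chromosome (horizontal axis) over genes of mean CPM at least 10 (on 9 and 15 the 525 and 391 genes described here, on the others all), in 4 comparisons of single libraries, 1 point each. Shading marks chromosomes 9 and 15, where the points of No20 stand at 0.38 and 0.40 and those of the other 3 comparisons lie between -0.03 and 0.09.

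The shift was spread over many genes, most of them under 2-fold. On chromosome 9, 280 of 525 genes (53.3%) were over 1.25-fold higher in No20 and 65 were over 1.25-fold lower, where 28% and 24.2% of all 9938 genes of that level were. On chromosome 15 the counts were 219 of 391 (56.0%) higher and 53 lower. Differences of over 2-fold were less common, with 66 genes higher and 22 lower on chromosome 9, and 59 higher and 11 lower on chromosome 15. The share of all genes over 2-fold was not counted, so these numbers have nothing to be set against. No20 was above both of the other ES lines in 314 of 525 genes of chromosome 9 (59.8%) and 245 of 391 of chromosome 15 (62.7%), where 35.7% of all 9938 genes were. It was below both in 128 of the 916 genes (14.0%), where 31.3% of all genes were. These shares are not independent of the choice of the chromosomes.

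The medians were similar with each reference line. Against No40 alone the medians were 0.34 for chromosome 9 and 0.38 for chromosome 15, and against DSY127 alone they were 0.39 and 0.39. Among the 209 genes of chromosome 9 whose levels in No40 and DSY127 were within 1.25-fold of each other, the median was 0.41 and 163 were positive. The same filter on other chromosomes left 3759 genes with a median of 0.01, 1896 of them positive. Level made little difference, as the median on chromosome 9 was 0.41 for 172 genes of 10 to 30 CPM, 0.38 for 212 genes of 30 to 100 CPM and 0.36 for 141 genes of 100 CPM or more. Genes with a shorter total exon length had a higher median than longer ones, 0.46 against 0.29 on chromosome 9.

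Shares of all counts need no reference library. Genes of chromosome 9 took 5.16% of all counts in the fibroblasts, 5.90% in No40, 6.04% in DSY127, 7.46% in No20 and 5.76% in the iPS library. Genes of chromosome 15 took 3.35%, 3.47%, 3.36%, 4.21% and 3.36% in the same order. No20 was the highest of the 5 libraries on both chromosomes, at 1.25 times the mean share of the other ES lines on chromosome 9 and 1.23 times on chromosome 15.

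Along chromosome 9 the median was above 0 in each of 13 bins. In these bins of 10 Mb by gene start, the first 3 bins had medians of 0.27 (26 genes), 0.24 (54 genes) and 0.18 (29 genes). The next 3 bins, from 30 to 60 Mb, had 0.33 (50 genes), 0.39 (102 genes) and 0.52 (28 genes). The highest bin was that of 60 to 70 Mb, with 0.70 over 17 genes, followed by 0.41, 0.45 and 0.49 in the bins up to 100 Mb. From there the median was 0.30 at 100 to 110 Mb (48 genes) and 0.35 at 110 to 120 Mb (66 genes). The last bin, from 120 to 130 Mb, stood at 0.11 over 20 genes, of which 7 were above both other lines. In that last bin the iPS and fibroblast libraries were also low against No40 and DSY127, at -0.33 and -0.44. The running median of 25 neighbouring genes went from 0.02 to 0.73 for No20, and from -0.40 to 0.41 for DSY127 against No40, so waves of single stretches are as wide in a comparison without No20. A search for the best single division of chromosome 9 into 2 stretches lowered the summed absolute deviation by only 1.15%.

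Chromosome 15 was not shifted along its whole length. Its first 6 bins, to 60 Mb, had medians of 0.51 (48 genes), 0.64 (33), 0.52 (112), 0.59 (22), 0.78 (23) and 0.56 (14). The bins from 60 Mb on had -0.01 (55 genes), -0.01 (41), 0.08 (23) and 0.26 (20). No20 was above both other ES lines in 92 of 112 genes at 20 to 30 Mb and in 16 of 55 genes at 60 to 70 Mb. The levels thus step down near 57 Mb, in the coordinates of the deposited table. No source used here names its genome build.

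**Figure D2:**
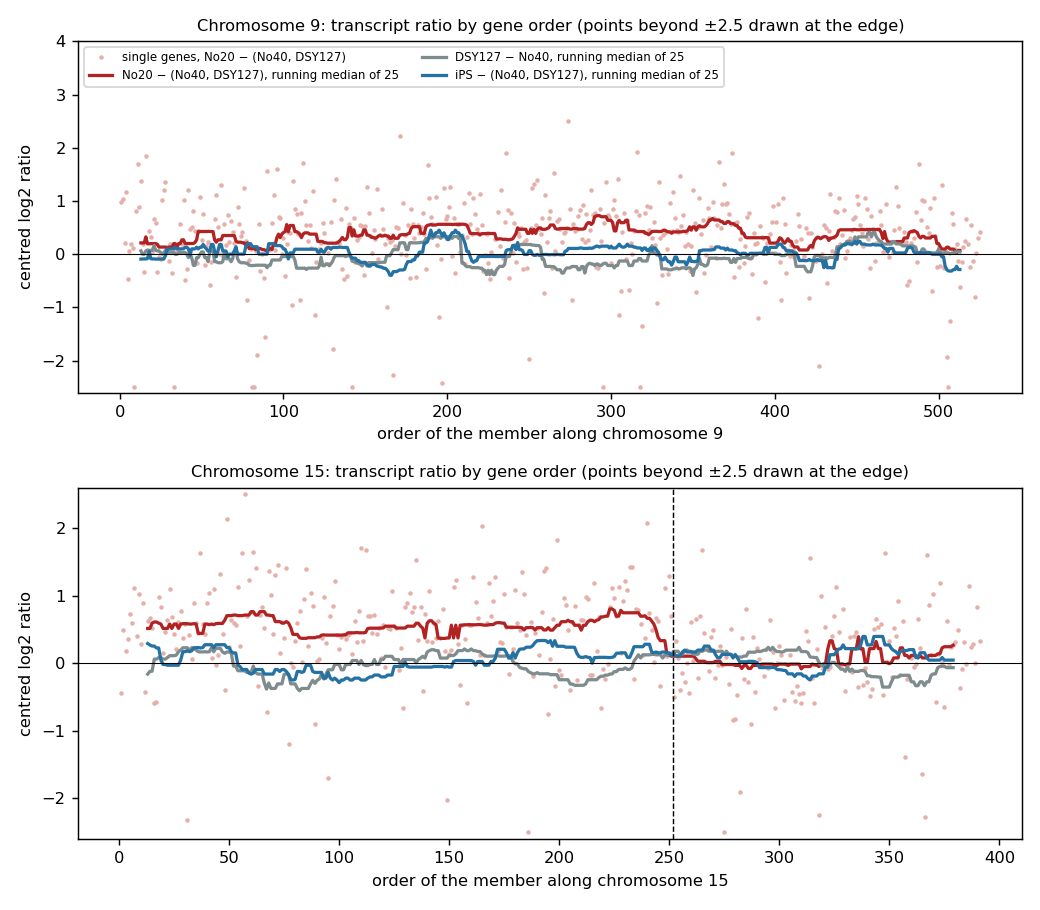
Centred log2 ratio (vertical axis) of each gene in No20 against No40 and DSY127 (pale points) and running medians of 25 genes for 3 comparisons (lines), against the order of the genes along chromosome 9 (upper panel) and chromosome 15 (lower panel). The No20 line stays above 0 along chromosome 9, between 0.02 and 0.73, and on chromosome 15 drops after the dashed line, which marks the division after the first 251 genes.

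The place of the step was sought by dividing the 391 genes of chromosome 15 at the point that left the smallest summed absolute deviation from 2 medians, a choice made after seeing the data. It fell between ENSCJAG00000015842 (chromosome 15, 56962362 to 57012205) and EDEM1 (57020688 to 57050101). The 251 genes on the lower side had a median of 0.57 (quartiles 0.20 and 0.89), or 1.49-fold, and 213 of them were positive. The 140 genes on the higher side had a median of 0.02 (quartiles -0.27 and 0.41), or 1.01-fold, and 74 were positive. The division lowered the summed deviation by 8.34%, and 17 divisions came within 1% of it, with starts from 49779569 to 61359139, so the step is placed within about that interval. The same neighbours were found with No40 or DSY127 as the only reference and with thresholds of 30 and 3 CPM. In DSY127 against No40, which uses no value of No20, the best division lay elsewhere, after the first 14 genes, and lowered the deviation by 1.27%.

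Near the step, 7 of the 8 nearest genes on the lower side had a positive ratio in No20, and 3 of the 8 nearest on the higher side did. Of all 9938 genes, 5201 (52.3%) had a positive ratio. The division was placed on these same ratios, so the counts by side describe it and do not test it. CRBN, the substrate receptor of a ubiquitin ligase, stood at 32.7 CPM in No40, 34.6 in DSY127 and 51.0 in No20. SUMF1, which activates sulfatases, stood at 22.1, 27.6 and 52.8 CPM. ENSCJAG00000015842, the last gene before the division, stood at 48.1, 50.5 and 78.8 CPM, whereas ITPR1, a calcium channel of the endoplasmic reticulum, had a ratio of only 0.10. On the higher side EDEM1, which helps to clear misfolded glycoproteins, stood at 42.3, 19.8 and 20.1 CPM, with No20 level with DSY127. BRPF1, a subunit of a histone acetyltransferase complex, stood at 41.4, 47.5 and 43.9 CPM, with No20 between the other lines. THUMPD3, a tRNA methyltransferase, stood at 79.6, 107 and 69.3 CPM, lowest in No20. These examples were picked from the 16 neighbours after their values were seen.

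The counts of single genes were also set out by stretch, though the division was found on these same ratios. On the lower stretch 174 of 251 genes (69.3%) were over 1.25-fold higher in No20, and 192 (76.5%) were above both other ES lines. On the higher stretch the counts were 45 of 140 (32.1%) and 53 of 140 (37.9%), near the 28% and 35.7% of all genes. The share of all counts taken by the lower stretch was 1.95% in the fibroblasts, 2.21% in No40, 2.15% in DSY127, 3.01% in No20 and 2.08% in the iPS library. No20 stood apart there, at 1.38 times the mean of the other ES lines. The share taken by the higher stretch was 1.20% in No20, against 1.26% and 1.21% in the other ES lines, or 0.977 times their mean.

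**Figure D3:**
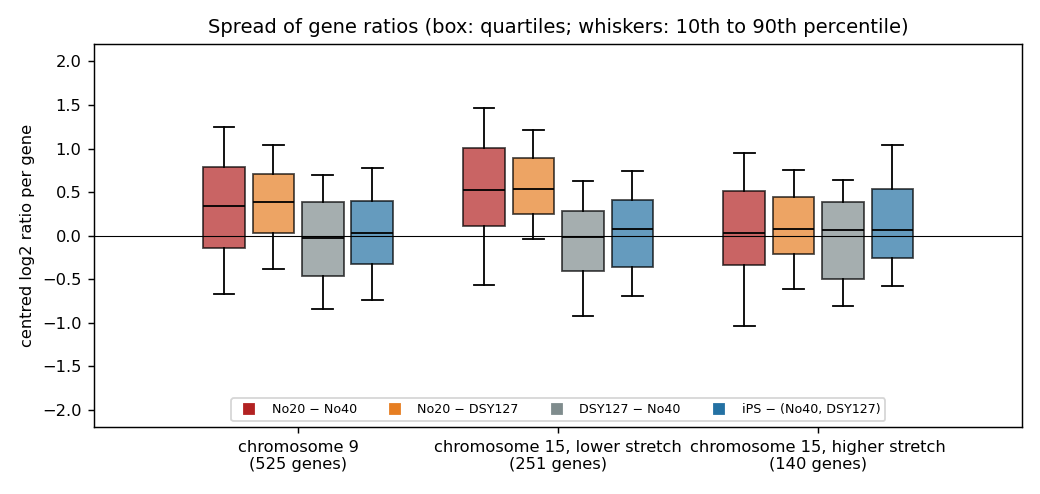
Spread of the centred log2 ratios of single genes (vertical axis) on chromosome 9 and on the lower and higher stretches of chromosome 15 for 4 comparisons; the line is the median, the box the quartiles and the whiskers the 10th and 90th percentiles over genes, not over replicates. The medians of No20 are 0.34 and 0.39 on chromosome 9 and 0.52 and 0.53 on the lower stretch, against 0.03 and 0.08 on the higher stretch.

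In the other libraries both chromosomes stayed within the range of the rest of the genome. DSY127 against No40 had medians of -0.03 on chromosome 9, -0.02 on the lower and 0.06 on the higher stretch of chromosome 15, within the range of the other chromosomes (-0.15 to 0.11). The iPS library against No40 and DSY127 had 0.04, 0.07 and 0.07, again within the range of the others (-0.19 to 0.12). The fibroblasts had 0.07, 0.02 and 0.14, where other chromosomes ran from -0.27 to 0.34. All of these comparisons share the No40 and DSY127 libraries, as the No20 values do.

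The levels of the most abundant genes can be set beside the median ratio of their chromosome in No20. GAPDH, a glycolytic enzyme often used as a reference gene, lies on chromosome 9 (18300487 to 18305257) and stood at 810 CPM in the fibroblasts, 863 in No40, 1010 in DSY127, 1447 in No20 and 896 in the iPS library. Its level in No20 was thus the highest of the 5 libraries, 1.58-fold over the other ES lines. HSP90B1, a chaperone of the endoplasmic reticulum, stood at 1628, 1734, 1821, 3179 and 1854 CPM in the same order, and was 1.82-fold higher in No20. NAP1L1, a histone chaperone, stood at 580, 838, 812, 1322 and 876 CPM, again highest in No20. RPLP0, a protein of the large ribosomal subunit, stood at 2244, 2182, 2413, 2700 and 2498 CPM, with a smaller difference of 1.20-fold. LRP1, an endocytic receptor abundant in fibroblasts, went the other way within the ES lines, with 3107 CPM in the fibroblasts, 620 in No40, 390 in DSY127 and 353 in No20.

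On chromosome 15 the scaffold of the translation initiation complex EIF4G1, on the lower stretch (5920135 to 5943825), stood at 1457 CPM in the fibroblasts, 847 in No40, 900 in DSY127, 1470 in No20 and 710 in the iPS library. No20 was 1.71-fold over the other ES lines and level with the fibroblasts. On the higher stretch FSTL1, a secreted glycoprotein (76527803 to 76591014), stood at 2513, 1201, 1375, 994 and 975 CPM, with No20 below both other ES lines. RPN1, a subunit of the enzyme that glycosylates proteins in the endoplasmic reticulum, stood at 950, 577, 704, 680 and 502 CPM, with No20 between the other lines. The gene model of GNAI2 (643, 754 and 778 CPM in No40, DSY127 and No20) spans 20 other identifiers of the table, so its counts are uncertain.

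**Figure D4:**
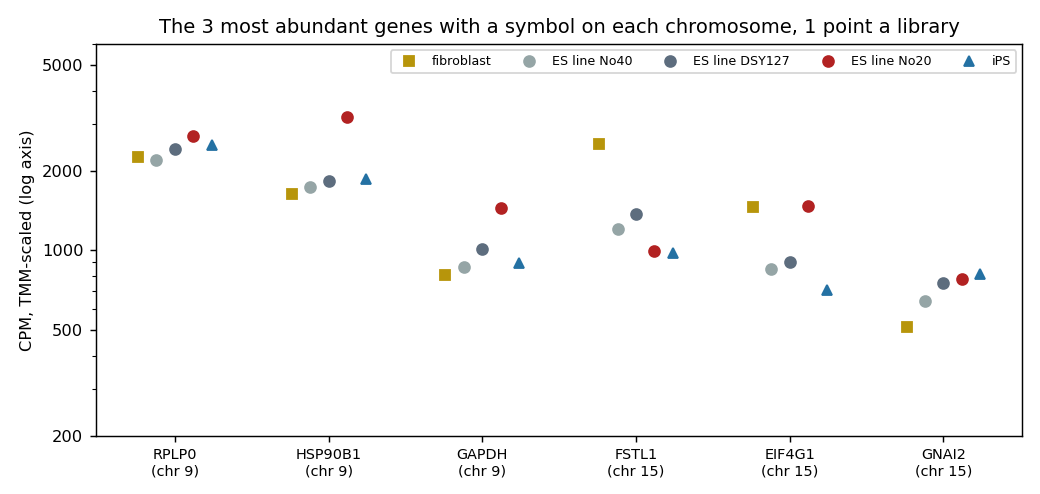
Level of the 3 most abundant genes with a symbol on each chromosome in CPM scaled with TMM factors (vertical axis, log scale), 1 point for each of the 5 libraries. No20 is the highest of the ES lines for RPLP0, HSP90B1, GAPDH, EIF4G1 and GNAI2, and for FSTL1 it is the lowest, at 994 against 1201 and 1375.

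The list of cell cycle and growth control genes has 27 members here, 22 on chromosome 9, and their median ratio in No20 was 0.39, with 18 above both other lines. Counts of this kind stand beside 61.0% of all 916 genes above both lines and 35.7% of all genes, and are not independent of the choice of chromosomes. CDK4, the kinase that starts the passage from G1 to S phase, stood at 133 CPM in No40, 200 in DSY127 and 403 in No20, against 314 in the fibroblasts and 145 in the iPS library. PA2G4, a growth regulator that binds the receptor ERBB3, stood at 250, 392 and 395 CPM in the ES lines, level between DSY127 and No20. TMPO, a protein of the nuclear lamina, stood at 252, 154 and 259 CPM, level between No40 and No20. CCND2, a cyclin partner of CDK4, stood at 72.7, 54.5 and 130 CPM in the ES lines. On the lower stretch of chromosome 15 all 4 members were above both other lines, among them KIF15, a spindle motor (66.5, 59.4 and 163 CPM), and RFC4, a subunit of the clamp loader of DNA replication (62.6, 69.4 and 139 CPM). MCM2, a subunit of the replicative helicase, is the 1 member on the higher stretch and was lowest in No20, at 352, 375 and 267 CPM. CCND2, KIF15 and RFC4 were named after their values were seen.

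Of 12 genes of glycolysis and central carbon metabolism, 9 were above both other lines in No20, with a median of 0.49. TPI1, a glycolytic enzyme that lies on chromosome 9 with GAPDH, stood at 249 CPM in No40, 223 in DSY127 and 311 in No20. CS, citrate synthase, stood at 360, 301 and 426 CPM, and SHMT2, a mitochondrial enzyme of serine and folate metabolism, at 124, 214 and 274 CPM. In these 3 genes No20 was highest of the ES lines, 1.31-fold to 1.71-fold over the mean of the other 2. SUCLG2, a subunit of a citric acid cycle enzyme on the lower stretch of chromosome 15, stood at 150, 133 and 270 CPM. Of 13 genes of the respiratory chain and mitochondria, 11 were above both other lines, with a median of 0.46. DSY127 against No40, which uses no value of No20, gave this list a median of 0.45, nearly as large. PHB2, a prohibitin of the inner mitochondrial membrane on chromosome 9, stood at 249, 358 and 392 CPM. UQCRC1, a core subunit of complex III on the lower stretch of chromosome 15, stood at 180, 247 and 283 CPM. In both, DSY127 lay nearer to No20 than No40 did. NDUFB5 and NDUFAF3, a subunit and an assembly factor of complex I, both lie on the lower stretch and stood at 63.7, 121 and 187 CPM and at 24.7, 23.5 and 49.9 CPM. SUCLG2 and NDUFAF3 were named after their values were seen.

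Of 23 genes of the ubiquitin system, the proteasome and protein folding, 18 were above both other lines (median 0.44), including all 7 on the lower stretch of chromosome 15. PSMD2, a subunit of the proteasome's regulatory particle, stood at 175 CPM in No40, 263 in DSY127 and 322 in No20. CCT2, a subunit of a cytosolic chaperonin on chromosome 9, stood at 316, 418 and 492 CPM, and PTGES3, a co-chaperone of HSP90, at 836, 864 and 1021 CPM. PSMD2 was named after its values were seen. Of 20 genes of RNA processing, 14 were above both other lines (median 0.38), all 4 on the lower stretch among them. DSY127 against No40 gave the same list a median of 0.38, as large as that of No20. TRA2B, a splicing regulator there, stood at 263, 333 and 437 CPM. PCBP2, an RNA-binding protein on chromosome 9, stood at 572, 721 and 830 CPM in the ES lines and was highest in the iPS library, at 1562 CPM. CPSF6, a factor of mRNA 3' end processing, stood at 222, 196 and 241 CPM, a smaller difference. The 13 genes of translation had a median of 0.24, with 8 above both lines. EIF4B, a cofactor of the helicase in translation initiation, lies on chromosome 9 and stood at 718, 590 and 896 CPM. RPL24, a protein of the large ribosomal subunit, lies on the higher stretch of chromosome 15 and stood at 290, 366 and 496 CPM, so No20 was 1.55-fold over the other ES lines there too.

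Of 31 chromatin and transcription regulators, 18 were above both other lines, with medians of 0.34 over 20 genes of chromosome 9, 0.59 over 7 genes of the lower stretch and -0.09 over 4 genes of the higher stretch. SMARCC1, a core subunit of the SWI/SNF remodeling complex on the lower stretch, stood at 729 CPM in No40, 621 in DSY127 and 844 in No20. CHD4, the ATPase of the NuRD complex on chromosome 9, did not share the higher median of its chromosome, at 736, 769 and 738 CPM. CNBP, a nucleic acid-binding protein on the higher stretch, stood at 210, 241 and 344 CPM, and at 866 CPM in the iPS library.

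The 8 members of the list of pluripotency and early embryo factors had a median of -0.18 in No20, and PRDM4 was the 1 gene above both other lines. NANOG, a core pluripotency factor on chromosome 9 (20166985 to 20173162), stood at 462 CPM in No40, 561 in DSY127, 523 in No20 and 539 in the iPS library. SOX2, its partner on the lower stretch of chromosome 15 (3410766 to 3412178), stood at 244, 163, 146 and 221 CPM, lowest in No20. GDF3, a TGF-beta family ligand on chromosome 9, stood at 185, 681, 45.3 and 505 CPM, and varied widely between the other ES lines too. Lists of cytoskeletal genes (14 members, median 0.20), surface receptors (20, median 0.20), matrix and secreted proteins (11, median 0.32) and apoptosis (6, median 0.25) had 6, 8, 6 and 2 members above both other lines. Each list is small and its members share the chromosomes, so these medians stand beside 0.38 and 0.40 as descriptions.

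The largest single differences exceeded the shift many times. HMGA2, an architectural chromatin protein of early development on chromosome 9 (55004901 to 55141419), stood at 28.2 CPM in the fibroblasts, 18.3 in No40, 15.7 in DSY127, 173 in No20 and 11.8 in the iPS library. It was 10.4-fold over the other ES lines, and its gene model overlaps 3 other identifiers. TNS2, a focal adhesion protein, stood at 7.31, 7.79 and 34.8 CPM in the ES lines, and POC1B, a centriolar protein, at 29.4, 18.8 and 88.1 CPM. On chromosome 15 LRRC15, a membrane protein known from fibroblasts, stood at 73.7 CPM in the fibroblasts, 0.447 in No40, 0.278 in DSY127 and 3.70 in No20, with no count in the iPS library. P3H2, a collagen prolyl hydroxylase, stood at 222 CPM in the fibroblasts and at 4.59, 5.17 and 21.3 CPM in the ES lines. CHL1, a cell adhesion molecule, stood at 44.6, 15.6 and 109 CPM. IL17RD, an inhibitor of growth factor signalling, stood at 11.0, 7.40 and 31.7 CPM, and SHISA5, whose gene model overlaps PFKFB4, at 21.6, 23.5 and 70.8 CPM. NAB2, a transcriptional corepressor, and ALDH1L2, a mitochondrial folate enzyme, complete the 5 highest ratios of each chromosome, at 5.03 and 29.5 CPM in No20 and 46.2 and 165 CPM in the fibroblasts. Of these 10 genes, which were chosen for their ratio in No20, 6 were higher in the fibroblasts than in No20. Among them LRRC15, P3H2 and NAB2 reached 10 CPM only with the fibroblast library in the mean. They thus had to be high there to be chosen. The same count over all genes was not made.

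In the other direction, PIWIL1, which acts with small RNAs of the germ line, stood at 24.9 CPM in No40, 46.1 in DSY127, 0.823 in No20 and 52.0 in the iPS library. PIK3C2G, a lipid kinase, stood at 0.244, 26.6, 0.114 and 47.5 CPM, so that No40 was as low as No20. KCNH3, a potassium channel, stood at 9.85, 14.6, 1.33 and 29.6 CPM. DPPA2, an early embryo factor on the higher stretch of chromosome 15, stood at 21.2, 26.4, 4.76 and 22.5 CPM, with No20 the lowest of the 4 pluripotent libraries. On the lower stretch SFMBT1, a Polycomb-related protein, stood at 10.5, 48.1, 3.50 and 58.3 CPM, and EPHB3, an ephrin receptor, at 76.3, 86.1, 15.9 and 49.5 CPM. MYLK, a kinase of myosin light chains, stood at 12.3, 7.87, 1.99 and 4.56 CPM, and in the fibroblasts at 42.5 CPM. It reached 10 CPM only with the fibroblast library in the mean. FBLN2, a matrix glycoprotein on the higher stretch, stood at 214, 243, 59.9 and 211 CPM, and in the fibroblasts at 736 CPM. For PIWIL1, DPPA2, SFMBT1, EPHB3, MYLK and FBLN2, No20 lay below No40, DSY127 and the iPS library alike. The same held for KCNH3, but KCNH3 and PIK3C2G reached 10 CPM only with the iPS library in the mean. These genes thus had to be high in the iPS library to be chosen.

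The fibroblast library was compared with the 3 ES lines in a test across all 17462 genes that passed a low-count filter (edgeR's quasi-likelihood test, Benjamini-Hochberg adjustment), and all 916 genes were tested. Of them 97 (10.6%) rose and 91 (9.93%) fell in fibroblasts at an adjusted p under 0.05, where 8.8% and 9.28% of all genes did. The median log2 fold change of the 916 genes was -0.02 and that of all genes -0.15. The share called was thus near that of all genes. On chromosome 9, 56 rose and 59 fell, and on chromosome 15, 41 rose and 32 fell. The spread comes from the 3 ES lines alone. Without line No20, 154 of the 916 genes rose, and without line No40, 55 did.

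The threshold of 10 CPM uses the fibroblast library, and 33 of the 916 genes reach it only with that library in the mean. Of these, 29 are among the 97 rises, TSPAN11, MASP1 and LRRC15 included, so these genes had to be high in that library to be chosen. TSPAN11, a tetraspanin of the cell surface, stood at 292 CPM in the fibroblasts and 0.146 ± 0.0944 CPM in the ES lines (SD, n = 3), a log2 fold change of 10.88 ± 0.59 (SE, edgeR adjusted p = 0.00119). ALCAM, a cell adhesion molecule, stood at 1140 CPM against 17.2 ± 9.14 CPM (6.05 ± 0.58, edgeR adjusted p = 0.00233). DCN, a small proteoglycan of connective tissue, stood at 636 CPM against 11.2 ± 1.93 CPM (5.82 ± 0.34, edgeR adjusted p = 0.00119). MASP1, a serine protease of the complement system, had a log2 fold change of 6.03 ± 0.57, and LRRC15 one of 5.63 ± 1.21. The call of LRRC15 was lost without line No40. Of the 11 matrix and secreted proteins, 4 rose (DCN, IGFBP6, NTN4 and WNT5A) and 1 fell (PLXNB1). The ES means of IGFBP6 (6.41 CPM) and NTN4 (5.58 CPM) lay under 10 CPM, so their choice may rest on the fibroblast library. The count of rises in this list is thus not independent of the threshold. Of the 20 receptors and surface proteins, 7 rose and 1, the receptor kinase ERBB3, fell. TSPAN11 is among these 7 rises, so this count is not independent of the threshold either. Among all genes 8.8% rose and 9.28% fell.

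The pluripotency list held 5 of the falls among its 8 members, NANOG, GDF3, DPPA2, SOX2 and PHC1, and no rise. Over all genes tested, 9.28% fell and 8.8% rose. NANOG stood at 0.357 CPM in the fibroblasts and 515 ± 49.9 CPM in the ES lines (SD, n = 3), a log2 fold change of -10.48 ± 0.59 (SE, edgeR adjusted p = 0.00119). SOX2 stood at 0.672 CPM against 184 ± 52.4 CPM, with -8.09 ± 0.67 (edgeR adjusted p = 0.00169). The calls of GDF3, DPPA2 and PHC1 were lost without line No40. USP44, a deubiquitinase, stood at 0.525 CPM against 78.8 ± 29.6 CPM and fell by 7.22 on the log2 scale. A2ML1, PTPN6 and GPR19 passed the test with no count in the fibroblasts. Set against a floor of 3 counts (0.063 CPM in that library), the fibroblast levels were at least 510-fold lower for A2ML1, 317-fold lower for PTPN6 and 192-fold lower for GPR19. Without line No40 the bound for A2ML1 was 351-fold. Leaving out line No20 instead gave bounds of 293-fold for PTPN6 and 166-fold for GPR19. GPR19 reached 10 CPM only with the iPS library in the mean.

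In the remaining lists, the members that passed the test between fibroblasts and ES lines were counted. Of all genes tested, 8.8% rose and 9.28% fell. Of 31 chromatin regulators 4 rose, SETD1B, HDAC7 and MBD6 among them, and none fell. The 14 cytoskeletal genes had 3 rises (CORO1C, PXN and LIMA1) and no fall, and the 27 cell cycle genes had no rise and 2 falls (ERBB3 and CDC25A). Of the 23 genes of the ubiquitin system and protein folding, USP44 and SENP2 fell and none rose. Of the 20 RNA processing genes PRPF40B fell, and of the 6 apoptosis genes DDIT3 rose. The ES mean of DDIT3 was 4.96 CPM, so its choice may also rest on the fibroblast library. None of the 13 translation genes or of the 13 mitochondrial genes passed in either direction. Among the 12 metabolic genes ALDH1L2 rose, at 165 CPM against 15.9 ± 11.9 CPM (SD, n = 3), and its call was lost without line No40.

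Against the ES lines 1 of the 916 genes passed the test in the iPS library, where 0.109% of all genes tested rose and 0% fell (edgeR, adjusted p under 0.05). ENSCJAG00000035024 (chromosome 9, 111450437 to 111451155), which has no symbol, stood at 48.8 CPM in the iPS library and 0.700 ± 0.312 CPM in the ES lines (SD, n = 3), a log2 fold change of 6.12 ± 0.64 (SE, edgeR adjusted p = 0.0371). It stood at 0.42 CPM in the fibroblasts, so it reached the threshold of 10 CPM only through the iPS library, and had to be high there to be chosen. At an unadjusted p under 0.05 in the edgeR test, 34 of the 916 genes were higher and 32 lower. Of all 17462 genes tested, 971 were higher and 547 lower at that level. DESeq2 called 19 higher and 5 lower, and edgeR without line No20 called 19 higher and 2 lower. Without line No40 edgeR called none higher. Both tested comparisons share the ES libraries.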

How the data were processed

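RNA-seq libraries of fibroblasts (1), ES lines (3) and iPS cells (1) were analysed. RNA extraction used a Qiagen RNeasy Mini kit, per the labels' protocols. Raw counts of reads by gene were deposited by the authors in a table, and again in 5 files of single libraries with identical counts. The submitters' processing notes list featureCounts 1.5.2, STAR 2.5.3a and Trim Galore 0.4.0. Genome build and counting settings (strand, reads with several matches, genes that overlap) were not given in the sources used here, so genes that overlap may share reads. Of 75 named genes 29 overlap another identifier. Of 30811 identifiers 12660 (41.1%) matched a symbol.

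Tests used edgeR 4.0.16 in R 4.3.3 (filterByExpr, TMM factors from 0.813 to 1.07, glmQLFit, glmQLFTest) on all 5 libraries, with Benjamini-Hochberg adjustment over 17462 genes and a threshold of 0.05. The common biological coefficient of variation was 0.458. The spread of a lone library is taken to equal that of the ES lines, and p-values rest on the spread of these 3 lines alone. Position ratios are differences of log2 CPM (TMM, prior count 2), centred on the median of the other chromosomes. The smallest p that 1 against 2 libraries allow is 0.333.

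The genes and the 12 function lists were chosen with earlier results of these data known. Genes named are the 5 most abundant of each chromosome, the 5 highest and lowest ratios of No20, the 5 largest called changes in each direction, up to 4 abundant members of a list, and those at the threshold, beside the neighbours of the division of chromosome 15, which were picked after it was found, the list members that passed a test, and a few said to be named after their values were seen. Alternatives were RLE factors, total counts, no low-count filter, DESeq2 1.42.0, other thresholds and priors, and each ES line left out in turn. A few genes that the rule names are not reported here.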

Additional observations from a re-analysis of the deposited data

How the results depend on the processing

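Over all alternatives run, the median ratio of No20 was 0.34 to 0.41 on chromosome 9, 0.37 to 0.49 on chromosome 15, 0.52 to 0.58 on its lower stretch and -0.01 to 0.08 on its higher stretch. On the higher stretch it was -0.0062 with a threshold of 30 CPM, -0.0099 with symbols only, and 0.026 to 0.082 with 1 of the reference lines left out. DSY127 against No40 on that stretch was 0.026 with a threshold of 3 CPM, 0.027 with ZNF and SLC symbols kept, 0.027 with symbols only, and 0.092 for genes with both lines within 1.25-fold, an alternative chosen after seeing the data. The iPS library there was -0.047 uncentred with TMM, -0.084 uncentred with total counts, 0.034 at 30 CPM, 0.045 for genes within 1.25-fold, and 0.10 to 0.15 with 1 reference line left out. The fibroblasts there had 0.22 uncentred with TMM, 0.12 at 3 CPM, 0.28 with symbols only and 0.084 within 1.25-fold. With uncentred total counts the fibroblast medians were -0.23 on chromosome 9, -0.21 on chromosome 15 and -0.16 on the higher stretch. Without its 5 most abundant genes, the share of chromosome 9 in No20 was 1.21 times that of the other ES lines.

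In fibroblasts against ES lines, leaving out 1 line gave 55 to 154 rises among the 916 genes, and over all genes 924 to 2184 rises and 818 to 2366 falls. Total counts gave 61 rises among the 916, and DESeq2 2718 falls over all genes. Of 188 calls among the 916 genes, 118 were shared without No40, 158 without DSY127, 184 without No20 and all 188 with DESeq2. In iPS against ES, leaving out 1 line gave 0 to 19 rises and 0 to 2 falls among the 916, and 0 to 256 rises and 0 to 12 falls over all genes. No low-count filter gave 12 rises and 1 fall among the 916 and 198 and 6 over all genes, and DESeq2 19 and 5, and 349 and 67. A set of 150 results of single genes was counted again under each alternative, so the totals are not numbers of genes. In these totals 1006 kept their call, 30 gained a call and 14 lost it. The causes were not tested. No paired analysis was possible because each library comes from a different line and the labels give no pairing between them. Depth limits the iPS library most, where 10 CPM is 57.5 counts.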

Other observations

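Genes left out by their symbols were looked at in the same way. On chromosome 9, 4 zinc finger (ZNF) genes had a median ratio of 0.21 in No20 against the other ES lines, and 3 were positive. On the lower stretch of chromosome 15, ZNF639, ZNF445, ZNF35 and ZNF502 were all positive with a median of 0.58, and ZNF148 on the higher stretch stood at -0.03. Solute carrier (SLC) genes, which encode membrane transporters, ranged widely. The 12 on chromosome 9 had a median of 0.19, from -2.07 to 1.19, and 7 were positive. On the lower stretch of chromosome 15 the 3 SLC genes were positive with a median of 0.27, and of the 5 on the higher stretch 1 was positive, with a median of -0.37. No symbol starting with HOXC reached the threshold. These are counts of few genes in single libraries, with no test.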
